A study of Mus musculus with 753 samples.

Results

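The MHC class II pathway genes *Cd74*, *H2-Aa*, *H2-Ab1*, *H2-Eb1*, *H2-DMa*, *H2-DMb1* and *Ciita* were followed through single keratinocytes of mouse skin and healing wounds. They are 7 of the 24657 genes in the expression table. They were chosen by pathway after an earlier reading of these data had found *Cd74* and *H2-Aa* higher in lin+ than in lin- wound cells, so that contrast is described here and not tested. Smart-seq2 libraries, which hold the full-length cDNA of 1 sorted cell each, were made from Gata6EFGPCreERT2 Rosa26-fl/STOP/fl-tdTomato mice, Cre (+/-) and tdTomato (+/-), 8 to 12 weeks old. 4-hydroxytamoxifen, given on the back skin of all mice, turned on tdTomato in cells that expressed *Gata6* at that time. *Gata6* encodes a transcription factor found in the upper part of hair follicles and in sebaceous ducts. Cells of this lineage (lin+, tdTomato-positive) and cells outside it (lin-, tdTomato-negative) were sorted from unwounded skin (day 0) and 6, 9 and 11 days after wounding. The Cre is driven by *Gata6*, and the label marks descent and not current expression: *Gata6* itself had reads in 33 of 222 and 54 of 462 cells of the batches described next.

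The 684 annotated cells formed 14 sets, each of 1 lineage, day and replicate, with 26 to 93 cells in a set. Replicate 1 of days 0, 9 and 11 (the first batch, 222 cells) was deposited as counts, whereas replicate 2 and day 6 (the second batch, 462 cells) were deposited as values divided by gene length. Each value was divided by the total of its cell and multiplied by 1000000. This scaled value is per length in the second batch only, so levels of different genes are compared there. The methods of the study report 2 replicates at day 6, but the labels name none, so each lineage had 1 set on that day. A replicate at days 9 and 11 was 1 mouse, one at day 6 was 3 mice, and the day 0 cells came from unwounded skin of the mice wounded for days 9 and 11. Median depth was 1806779 to 5967310 reads and 1776 to 3228 genes per cell across sets. Cells were stained for CD45, the surface protein of white blood cells, and for Itga6 before sorting, and were mixed with eGFP-expressing epidermal cells that were sorted out again.

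The cells carried the keratinocyte genes that their label calls for. *Krt14*, a keratin of basal epidermis, had reads in 213 of 222 cells of the first batch and 400 of 462 of the second. *Ptprc*, which encodes CD45, had reads in 7 and 5 cells. *Cd207*, the defining gene of Langerhans cells, had reads in 1 cell, a lin- cell of day 0 with no read of any member. Some markers of other cell types were more frequent in the 2 batches. *Trbc2* (T cells) had reads in 45 and 75 cells and *Cd68* (macrophages) in 16 and 16. *Dct* (melanocytes) had reads in 8 and 32 and *Col1a1* (fibroblasts) in 38 and 8 cells.

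MHC class II molecules present peptides from engulfed or internal material to CD4+ T cells. An alpha chain and a beta chain, encoded here by *H2-Aa* with *H2-Ab1* and by *H2-Eb1* with an alpha chain that is missing in mice of C57BL/6 background, are held by the invariant chain *Cd74* until they reach an endosome. There H2-DM, a dimer of *H2-DMa* and a *H2-DMb* chain, loads the peptide. *Ciita* encodes the transactivator that turns these genes on together through factors bound to short boxes upstream of each gene. In skin, Langerhans cells carry class II at all times, and keratinocytes can acquire it in inflamed skin and under interferon gamma.

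The 5 H2 genes lie together on chromosome 17, from 34119693 (start of *H2-DMa*) to 34316674 (end of *H2-Eb1*) in GRCm38.p6. The 250 bases before the start of *H2-Aa* (chr17:34287824-34288073, minus strand), *H2-Eb1* (chr17:34305617-34305866, plus strand) and *H2-DMb1* (chr17:34152941-34153190, plus strand) are shown because the transactivator acts through boxes in this stretch. They were taken from RefSeq, whose table held 4 of the 6 genes looked up. The one not shown, *H2-DMa*, has 2 starts in the table, of which 1 held the Y box letters and neither held the other motifs. Capitals mark the Y box (CCAAT or its reverse complement ATTGG), the cAMP response element (TGACGTCA) and the longest run shared by *H2-Eb1* and *H2-DMb1*.
H2-Aa: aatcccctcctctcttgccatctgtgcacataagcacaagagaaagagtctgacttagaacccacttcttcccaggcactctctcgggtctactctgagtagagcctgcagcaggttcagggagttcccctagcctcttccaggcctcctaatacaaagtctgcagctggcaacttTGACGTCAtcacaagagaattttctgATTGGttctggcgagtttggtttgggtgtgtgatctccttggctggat
H2-Eb1: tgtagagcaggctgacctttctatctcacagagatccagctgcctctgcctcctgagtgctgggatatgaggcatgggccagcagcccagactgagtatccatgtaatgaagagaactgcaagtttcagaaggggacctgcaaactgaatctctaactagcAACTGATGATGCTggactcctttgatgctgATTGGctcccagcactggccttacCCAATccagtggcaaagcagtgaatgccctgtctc
H2-DMb1: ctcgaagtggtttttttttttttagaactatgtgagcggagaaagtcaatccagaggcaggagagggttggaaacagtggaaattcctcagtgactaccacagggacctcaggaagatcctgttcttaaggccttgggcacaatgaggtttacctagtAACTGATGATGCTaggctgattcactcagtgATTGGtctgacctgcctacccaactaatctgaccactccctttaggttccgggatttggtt
Each promoter shown held ATTGG, at 48 to 44 bases before the start in *H2-Aa*, 59 to 55 in *H2-Eb1* and 61 to 57 in *H2-DMb1*. The Y box letters are common and were found on either strand in 33.8% of 32851 RefSeq promoters of this length. The run AACTGATGATGCT was found upstream of *H2-Eb1* and *H2-DMb1* and in no other promoter (2 of 32851, 0.00609%), and *H2-Aa* had TGACGTCA at the corresponding place (1.55% of promoters). The distance from these letters to ATTGG was 18, 17 and 18 bases in *H2-Aa*, *H2-Eb1* and *H2-DMb1*. The motifs do not overlap each other in these promoters, and a match of letters is a description and not a sign of binding.

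*Cd74*, the invariant chain, was the most abundant member. Per length it had a mean of 451 over the second batch, followed by *H2-Ab1* with 172, *H2-Aa* with 78.2, *H2-DMb1* with 68.7, *H2-Eb1* with 32.7, *H2-DMa* with 12.7 and *Ciita* with 0.377. These means come from few cells. Of 684 cells, 231 had a read of any member, 80 of at least 2 and 32 of at least 4, and none had all 7. In the second batch *Cd74* had reads in 94 of 462 cells, with a median of 1344.5 reads in those cells and up to 101198, so most positive cells were far from the detection limit.

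For *Cd74* the mean scaled value in lin+ cells was 13.4 and 274 (day 0, replicates 1 and 2), 1536 (day 6), 78.9 and 148 (day 9), and 369 and 491 (day 11). In lin- cells it was 28.5 and 102 (day 0), 163 (day 6), 0.298 and 5.01 (day 9), and 20.3 and 59.9 (day 11). The highest set was thus lin+ day 6, and lin+ exceeded lin- of the same mice in 5 of 5 wound sets and in 1 of 2 at day 0, although the wound values of the lineages overlap between days. The share of cells with *Cd74* reads showed the same order in the wounds, from 16.7% to 30.1% of lin+ and 6.82% to 14.9% of lin- cells. At day 0 it was 6.38% and 34.8% in lin+ and 4.26% and 10.4% in lin- cells. The replicates of day 0 are also the batches, so batch and mouse cannot be told apart there.

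*H2-Aa*, the alpha chain, was found mostly in lin+ cells in wounds. Its lin+ mean was 0 and 26.4 (day 0), 296 (day 6), 41.6 and 49.1 (day 9), and 117 and 59.1 (day 11). Its lin- mean was 0.601 and 18.3 (day 0), 16.7 (day 6) and at most 0.0163 in the 4 later sets, of which 3 had no read. At 0 of 28, 0 of 26 and 0 of 47 cells, those 3 sets allow shares of cells with a read of up to 10.7%, 11.5% and 6.38% (3 cells of the total).

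*H2-Ab1*, the beta chain that pairs with it, had lin+ means of 0.00992 and 39.1 (day 0), 620 (day 6), 97.5 and 85.4 (day 9), and 391.6 and 195 (day 11). Its lin- means were 0.446 and 0 (day 0), 51.6 (day 6), 8.03 and 19.3 (day 9), and 24.6 and 31.3 (day 11). The lin+ and lin- wound sets of *H2-Aa* and *H2-Ab1* did not overlap, in the contrast that led to the choice of these genes. For scale, limma called 0.262% of all genes in that contrast at an adjusted p under 0.05. A call is another criterion than non-overlap, and the share of all genes whose wound sets do not overlap is not given. How unusual the non-overlap is was therefore not tested.

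*H2-Eb1*, the beta chain of the other class II molecule, was lower. Its lin+ mean was highest at day 6 (96.4) and ranged from 0.0174 to 60.4 at days 9 and 11, against 24.8 and 0 to 15.1 in lin- cells. At day 9 the lin+ means were 0.0174 and 14.4, with a read in 1 of 42 and 2 of 44 cells, and at day 0 they were 0.0478 and 5.95, each from 1 cell.

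The peptide loading genes followed the chains less closely. *H2-DMa* was found in at most 5 cells of any set, with lin+ means of 5.44 to 45.7 in wounds and no read in 5 of 7 lin- sets. *H2-DMb1* had lin+ means of 51.5 and 54.3 (day 0), 158 (day 6), 25.4 and 23.8 (day 9), and 39.7 and 43.7 (day 11). In lin- cells it had 0.170 and 36.7 (day 0), 37.8 (day 6), 1.73 and 82.0 (day 9), and 0.0128 and 54.2 (day 11). Within replicate 2 of days 9 and 11 it was therefore higher in lin- than in lin+ cells, and within replicate 1 the reverse. At day 9 of replicate 2, 29.5% of lin- cells (13 of 44, exact 95% interval 16.8% to 45.2%) and 11.4% of lin+ cells (5 of 44, 3.79% to 24.6%) had its reads. *H2-DMb1* has the near-identical neighbour *H2-DMb2*, and 63 of the 73 cells with *H2-DMb1* in the second batch also had *H2-DMb2*, at a median of 7.16% of its value, so its counts are uncertain.

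*Ciita*, the transactivator, was at the limit of detection. It had reads in 9 cells of the first batch, with a median of 2 reads, and in 7 cells of the second, with a median of 34. Its set means stayed at or under 0.759. With 0 of 44 to 0 of 47 cells in 3 sets of the second batch, up to 6.82% of lin- cells at day 9 and 6.38% of either lineage at day 11 could hold a read without one having been seen.

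**Figure D1:**
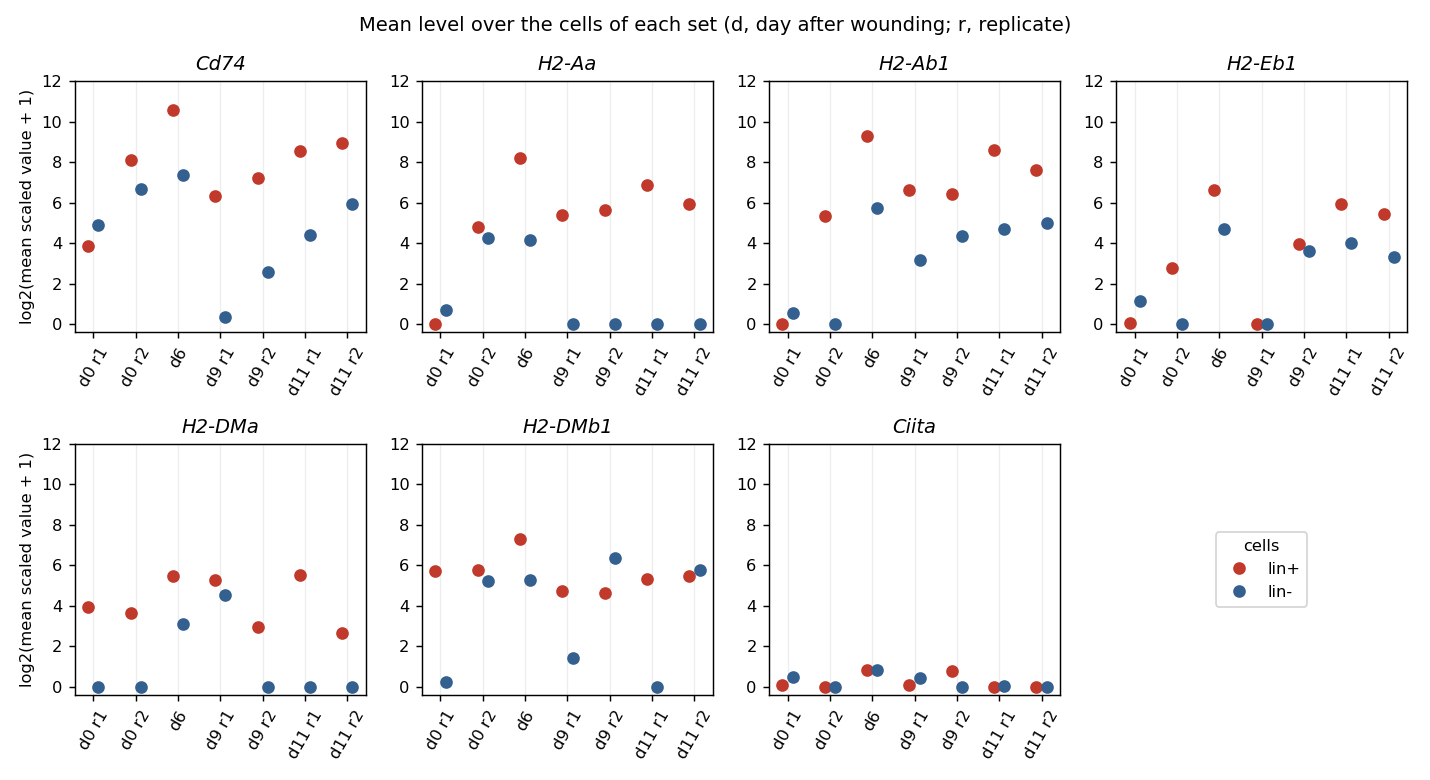
Mean scaled value of each gene over the cells of each set, as log2(value + 1), with lin+ (red) and lin- (blue) cells of the same mice side by side by day and replicate. lin+ day 6 is the highest set for *Cd74* (1536), *H2-Ab1* (620) and *H2-Aa* (296), whereas *H2-DMb1* is higher in lin- cells in replicate 2 of days 9 and 11.

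Which keratinocyte identity carried these reads was read from the deposited annotation, in which IFE-B is the basal interfollicular epidermis, uHF the upper hair follicle in several states and OB the outer bulge. Since identities were called from the expression of these same cells, the shares are a description. Summed over the wounds, most class II signal of lin+ cells lay in IFE-B cells. In the second batch, IFE-B made up 46.2% of lin+ wound cells and held 87.8% of the summed *Cd74* value, 89.2% of that of *H2-Aa* and 84.3% of that of *H2-Ab1*. *Cd74* had reads in 37 of 85 IFE-B cells (43.5%, exact 95% interval 32.8% to 54.7%), 11 of 48 uHF-I cells (22.9%, 12.0% to 37.3%) and 2 of 21 OB cells (9.52%, 1.17% to 30.4%). *H2-Aa* had reads in 21 of 85 IFE-B, 5 of 48 uHF-I and 0 of 21 OB cells. The intervals cover counting error only, and cells of 1 set share a mouse or a pool of mice. For *Cd74* the order came from days 6 and 9: its mean in IFE-B and uHF-I cells reached 2958 against 460 on day 6, then 359 against 35.0 on day 9 of replicate 2. On day 11 of that replicate it was 632 and 666, with reads in 8 of 24 and 4 of 11 cells.

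In lin+ wounds of the first batch IFE-B made up 63.5% of the cells and held 80.2% of the summed *Cd74* and 91.5% of the *H2-Aa* value. These shares rest on few cells. *H2-Aa* had reads in 7 of the 74 cells, and 1 cell held 53.0% of the *Cd74* value at day 9 and 1 cell 54.3% at day 11. The mean of *Cd74* in IFE-B and uHF-I cells was 89.3 against 90.7 on day 9, and 529 against 376 on day 11. The share of cells did not separate the identities there, with *Cd74* reads in 11 of 47 IFE-B and 4 of 14 uHF-I cells.

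Within IFE-B cells alone the lineages are given as a description. *Cd74* reads were found in 22 of 44 lin+ and 9 of 57 lin- IFE-B cells at day 6 (50.0% and 15.8%), in 6 of 29 and 1 of 21 at day 9 of replicate 1, and in 7 of 17 and 1 of 17 at day 9 of replicate 2. At day 11 they were found in 5 of 18 and 1 of 15 cells of replicate 1 and in 8 of 24 and 5 of 20 cells of replicate 2. The lin+ share was the higher one in 5 of 5 wound sets, by little at day 11 of replicate 2, and the part of cell identity in the lineage contrast was not tested. In unwounded skin 2 of 23 lin+ and 2 of 36 lin- IFE-B cells of replicate 1 and 8 of 21 and 4 of 31 of replicate 2 had *Cd74* reads.

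*H2-DMb1* had no such order when the sets were pooled. In lin+ wound cells of the second batch it was found in 21.2% of IFE-B, 22.9% of uHF-I and 23.8% of OB cells. The sets behind these shares differed: in uHF-I cells it was found in 11 of 26 at day 6 and in 0 of 11 at both day 9 and day 11, whereas IFE-B cells had 9 of 44, 3 of 17 and 6 of 24. In lin- wound cells OB held 61.7% of its summed value, with reads in 12 of 60 OB cells (4 of 22 at day 6, 7 of 18 at day 9 and 1 of 20 at day 11), whereas *Cd74* was found in 2 and *H2-Aa* in 1 of these 60 cells.

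**Figure D2:**
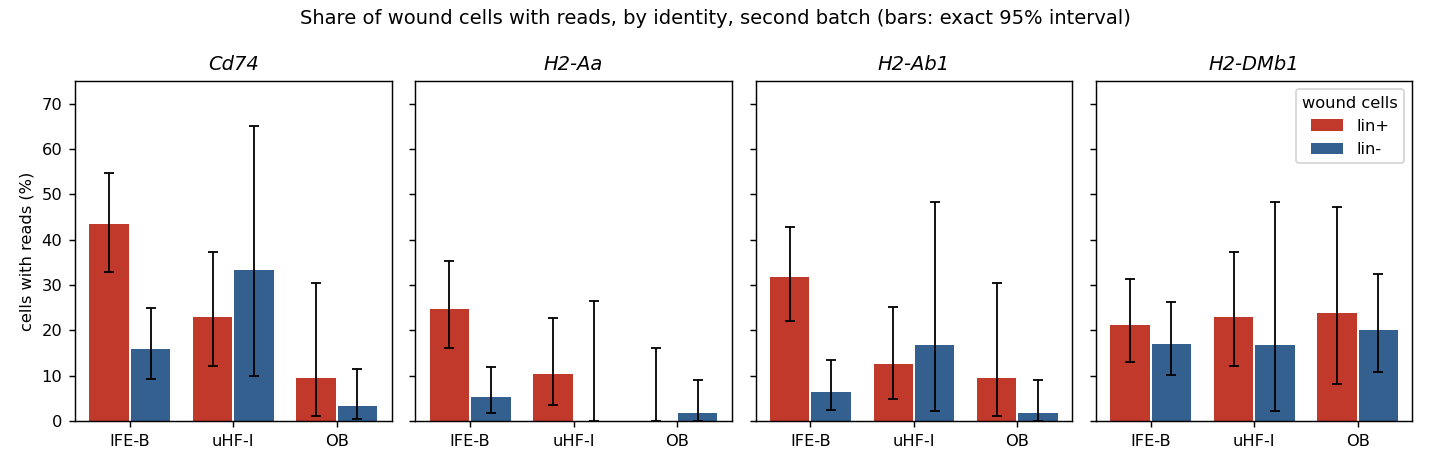
Percentage of wound cells of the second batch with reads of 4 genes in IFE-B, uHF-I and OB cells, for lin+ (red) and lin- (blue) cells, with exact 95% intervals. *Cd74*, *H2-Aa* and *H2-Ab1* are most frequent in lin+ IFE-B cells (43.5%, 24.7% and 31.8%), whereas *H2-DMb1* lies between 16.7% and 23.8% in all 6 groups, which pool sets that differ (lin+ uHF-I had 42.3% at day 6 and 0% at days 9 and 11).

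The chains and the invariant chain were found in the same cells. In the second batch *Cd74* had reads in 33 of 40 cells with *H2-Aa* (82.5%, exact 95% interval 67.2% to 92.7%) and in 14.5% of the cells without it. It was also found in 41 of 50 cells with *H2-Ab1* and 25 of 31 with *H2-Eb1*, and *H2-Ab1* in 29 of 40 cells with *H2-Aa*. The reverse was looser, since 35.1% of the cells with *Cd74* had *H2-Aa* and 42.6% had no other member. Cells with *Cd74* alone had a lower median value than cells with *Cd74* and another member (290 and 1183).

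The first batch was thinner but had the same direction, with *Cd74* in 5 of 8 cells with *H2-Aa* (62.5%) against 9.35% of cells without. Counting only cells with at least 10 reads of a gene gave 28 of 34 cells (82.4%) in the second batch, and thinning each cell to 500000 reads gave 30 of 37 (81.1%). Second-batch cells with at least 4 members also had more genes detected than cells with none, at medians of 4097 and 2262.5. The part of this in co-detection was not tested.

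*H2-DMb1* was found with this group in some cells and alone in others. It was the only member in 46 of its 73 cells (63.0%) of the second batch, and 24 of the 73 had *Cd74*. In lin+ IFE-B cells 14 of 18 cells with *H2-DMb1* had *Cd74* (77.8%) and 13 of 18 had *H2-Ab1*, whereas 4 of 32 lin- cells with *H2-DMb1* had *Cd74*. *Ciita* was found in too few cells for an order. In the second batch 5 of its 7 cells had another member, 4 of them *Cd74* and 4 *H2-Aa*, and in the first batch 2 of 9 had another member and 0 of 9 *Cd74*. Across the 462 cells of the second batch, Spearman's rho between a gene and the sum of the other members was 0.50 for *H2-Ab1*, 0.42 for *H2-Aa*, 0.41 for *Cd74*, 0.36 for *H2-Eb1*, 0.21 for *H2-DMa*, 0.13 for *H2-DMb1* and 0.10 for *Ciita*. These cells share sets and differ in depth, and the values are given as a description.

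**Figure D3:**
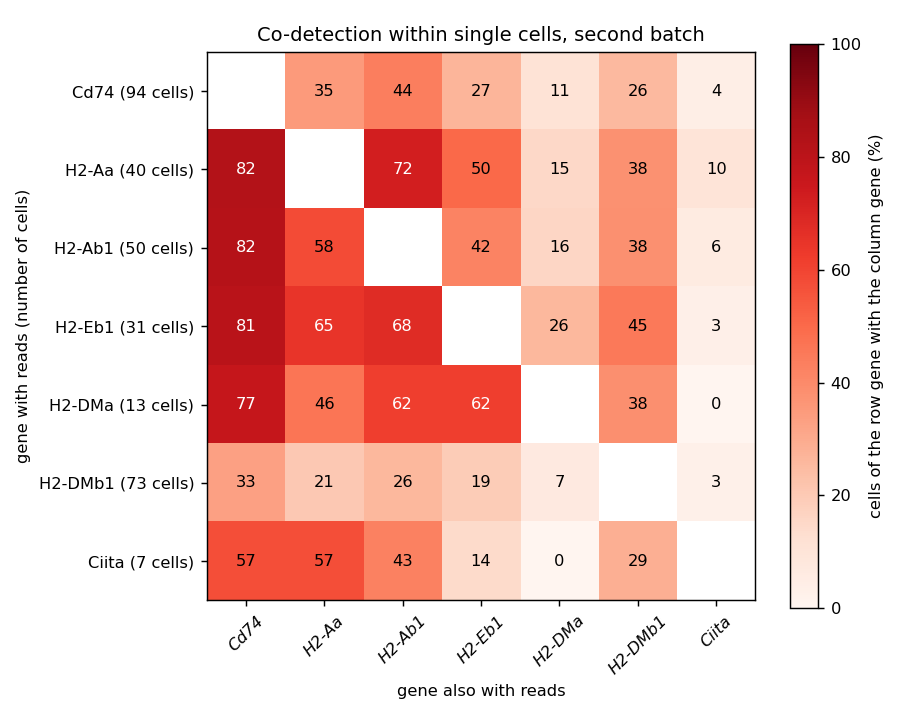
Percentage of the cells with reads of the row gene that also had reads of the column gene, in the 462 cells of the second batch, with the number of cells of each row gene in brackets. The *Cd74* column is dark for *H2-Aa* (82.5%), *H2-Ab1* (82.0%), *H2-Eb1* (80.6%) and *H2-DMa* (76.9%) and pale for *H2-DMb1* (32.9%, pooled over lineages and identities).

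Of the 32 cells with at least 4 members 26 were IFE-B, 4 uHF-I and 2 OB cells, and 25 were lin+. All 3 labels together, lin+ IFE-B of day 6, held for 12 of the 32. By day, 1 came from day 0, 21 from day 6, 3 from day 9 and 7 from day 11. At day 6, 12 of 44 lin+ IFE-B cells (27.3%, exact 95% interval 15.0% to 42.8%) and 5 of 57 lin- IFE-B cells (8.77%, 2.91% to 19.3%) were of this kind. None of the 94 cells of day 0 in the second batch had over 3 members. The single cell of day 0 was an OB cell of the first batch with 10807 genes.

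Of the 32 cells, 31 had reads of *Krt14* and 31 of *Krt5*, 1 had *Ptprc* and none had *Cd207*. No marker of the 31 measured for Langerhans and dendritic cells, macrophages, T cells and B cells was found in 12 of them. The same held for 280 of the 453 cells without any member, and at most 7 were found in a cell of either group. The most frequent were *Trbc2*, a constant gene of the T cell receptor, in 11 of the 32 and 72 of the 453 cells, and *Laptm5*, a gene of white blood cells, in 5 and 5. Among rarer markers, *Fcer1g* was found in 3 and 4 cells, *Spi1* in 2 and 2 and *Cd86* in 2 and 0. Others went the other way, such as *Cd68* in 1 and 24 and *Irf8* in 0 and 10 cells. Their part in the result was not tested. The summed level of these 31 markers ran from 0 to 4124, with a median of 1.97, in cells with at least 4 members, and from 0 to 9156, with a median of 0, in cells with none. By set the mean of this sum ran from 36.6 (lin+ day 6) to 430 (lin+ day 11 of replicate 2). Reads of *Ptprc*, of *Cd207* or of at least 3 of the other markers were found in 29 cells. These were 5 of the 32 cells with at least 4 members, 15 of the 453 with none, and others with 1 to 3 members. Leaving out the 29 cells left 21 lin+ and 6 lin- wound cells with at least 4 members.

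These cells also had more genes detected, a median of 3734.5 against 2254 in cells without any member, and 3451 against 1580 within lin+ day 6. In that set the 15 cells with at least 4 members differed from the 49 with none in genes of related function, which were picked from the class I and interferon lists after their values were seen. *Psmb9*, an immunoproteasome subunit, had reads in 12 of 15 and 7 of 49 cells. *Nlrc5*, the transactivator of class I genes, had reads in 8 of 15 and 6 of 49, and *Irf1*, a transcription factor induced by interferon gamma, in 6 of 15 and 3 of 49. For comparison *Krt5* was found in 14 of 15 and 32 of 49 and *B2m*, the class I light chain, in 15 of 15 and 46 of 49 cells. *Cd274*, a checkpoint ligand, was found in 5 of 15 and 34 of 49 cells, but at mean scaled values of only 0.214 and 1.18. The part of depth in these differences was not tested.

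**Figure D4:**
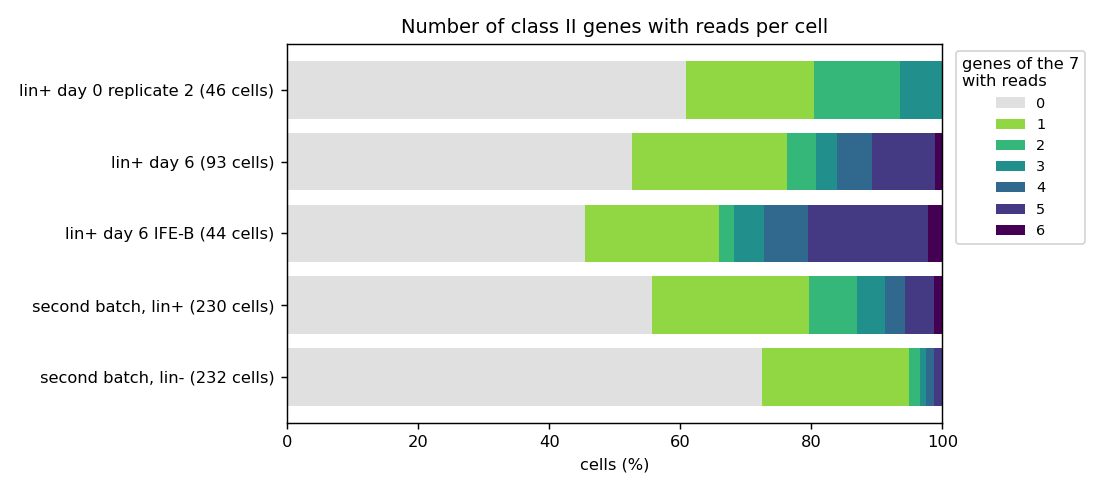
Percentage of cells by the number of the 7 genes with reads, from 0 (grey) to 6 (dark purple), in 5 groups of cells. Cells with 4 or more genes make up 12 of 44 lin+ IFE-B cells at day 6 and are missing from the 46 lin+ cells of day 0 in replicate 2.

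Whether the lineages already differed in unwounded skin was tested by limma on the log2 of the set means plus 1, with the mouse set as a block. Here 46 of 10672 genes (0.431%) were called at an adjusted p under 0.05, 26 higher and 20 lower in lin+ cells, and without the block 15 were called. Of the 7 members 6 passed the filter on low values, *Ciita* being too low, and 0 of these 6 were called, with 1615 of all genes at an unadjusted p under 0.05 by limma and 17 called by edgeR on recovered reads. The 6 differences had a median of 1.64, against −0.03 for all genes.

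*Cd74* differed by 0.24 on the log2 scale (95% interval −1.49 to 1.97) and *H2-Aa* by −0.07 (−2.21 to 2.07). *H2-DMa* had the largest difference at day 0, 3.89 (1.29 to 6.48, adjusted p = 0.159, limma). It rests on 3 lin+ cells against none among the lin- cells, and on the 1 added before the log. *H2-Ab1* (2.42, −0.07 to 4.90) and *H2-DMb1* (3.11, −0.28 to 6.50) were higher in lin+ cells in 1 of 2 and 2 of 2 replicates. Without either day 0 set of replicate 1, *H2-Ab1* had 5.39 and was called (adjusted p = 0.0253 and 0.0272, range over its alternatives 0.0253 to 0.859, limma). In wounds the differences were 4.24 (*Cd74*, standard error 0.50), 5.55 (*H2-Aa*, 0.61), 3.20 (*H2-Ab1*, 0.71), 2.85 (*H2-DMa*, 0.74), 1.77 (*H2-DMb1*, 0.97) and 1.31 (*H2-Eb1*, 0.74). They are given without a test, and the difference between skin and wound was not tested, since the wound contrast chose the genes.

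The course in time was tested within each lineage. For days 9 and 11 against day 6, 1 of 10672 genes (0.00937%) was called in lin+ and 4 (0.0375%) in lin- cells, none of them a member. The fitted differences of all 6 members tested were below 0 in both lineages. Their medians were −2.004 in lin+ and −2.32 in lin- cells, against 0.06 and 0.00 for all genes. The members were found in part in the same cells and share the day 6 set of a lineage, so their signs are not independent. The share of all genes below 0 is not given. *H2-DMa* had −3.00 in lin- cells, from set means of 7.50 at day 6, 21.9 and 0 at day 9, and 0 in both replicates of day 11. For *H2-DMb1* in lin- cells the fitted difference was −0.92 (95% interval −4.62 to 2.79), although the later sets of the same batch, 82.0 and 54.2, lay above day 6 (37.8). *Cd74* had −2.17 in lin+ (95% interval −4.20 to −0.14, adjusted p = 1.00, limma) and −3.48 in lin- cells (−5.51 to −1.45, unadjusted p = 0.00272, adjusted p = 0.526, limma). Each lineage had 1 set at day 6 and it is in the second batch only, so its spread is taken from the other days. By edgeR on recovered reads 2 and 1 genes were called and *H2-Aa* had 0.94 in lin+ cells, against −1.84 by limma.

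For day 11 against day 9, 0 of 10672 genes (0%) were called by limma in either lineage, with 183 in lin+ and 273 in lin- cells at an unadjusted p under 0.05 and 0 by edgeR in both. *Cd74* was higher at day 11 by 1.82 in lin+ cells (0.06 to 3.57, adjusted p = 1.00, limma) and by 3.66 in lin- cells (1.90 to 5.42, unadjusted p = 0.000627, adjusted p = 1.00, limma), in 2 of 2 replicates of each. In lin- cells of replicate 1 *Cd74* had reads in 2 of 28 cells at day 9 and 2 of 26 at day 11. There 1 cell held 99.95% of the day 11 value. In replicate 2 the lin- counts were 3 of 44 and 7 of 47 cells. *H2-Eb1* had 3.58 in lin+ cells (0.29 to 6.88), and the intervals of the other members reached both sides of 0. These tests share the sets of days 9 and 11 with those against day 6. None of the p-values counts cells as replicates, and they measure the spread between sets, some of which are pools of mice.

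**Figure D5:**
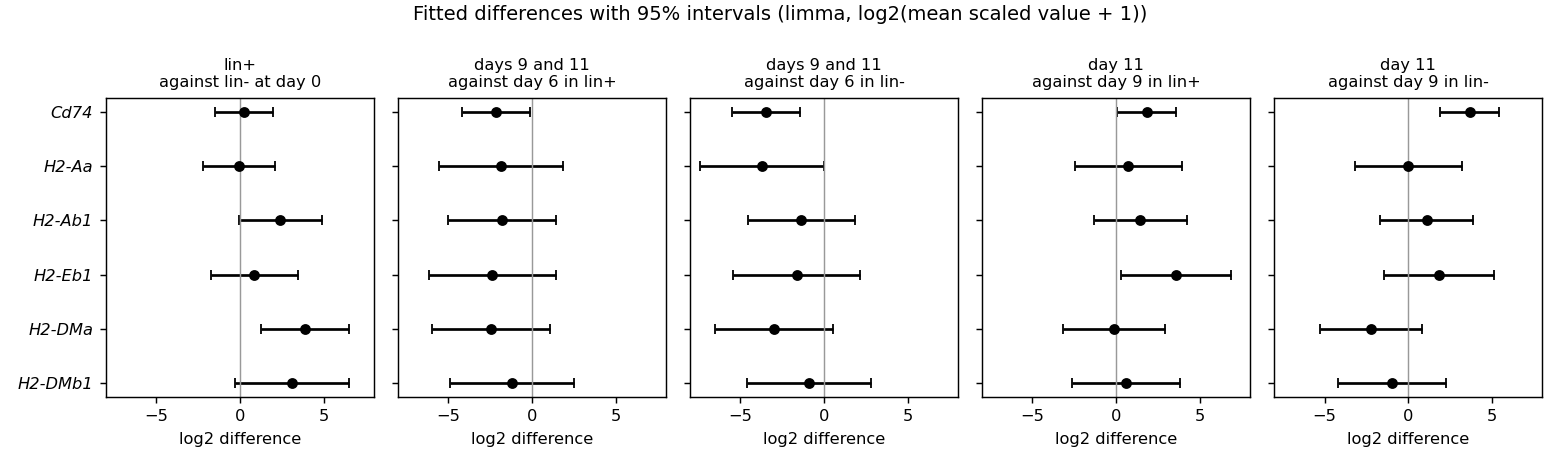
Fitted log2 differences of the 6 members that passed the filter, with 95% intervals from limma, in the 5 comparisons tested. All 6 points lie below 0 for days 9 and 11 against day 6 in both lineages, but the members share cells and sets and are not independent. No member was called at an adjusted p under 0.05.

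The rest of the pathway showed no call in these 5 tests, which called at most 29% of simulated 8-fold changes. Of 12 other class II pathway genes, such as the cathepsins *Ctss* and *Ctsb*, 7 could be tested and 0 were called in any of them. The same held for 5 of 7 transcription factors of the class II boxes (such as *Rfx5* and *Nfya*), 1 of 7 costimulation and checkpoint genes, 12 of 12 class I genes, 12 of 17 interferon gamma response genes and 4 of 9 type I interferon response genes. In wounds, without a test, lin+ exceeded lin- cells for 12 of 12 class I genes (median 1.06) and 11 of 12 interferon gamma genes (median 0.95), against a median of −0.01 over all genes. Markers of cell identity moved in the same contrast, with 5 of 5 upper follicle markers (median 2.96) and 7 of 8 keratinocyte markers (median 0.41) higher, and 0 of 4 outer bulge (median −1.06) and 0 of 3 melanocyte markers (median −4.02) higher in lin+ cells. Their part in the result was not tested. The median was −0.35 for the 5 transcription factors and −0.08 for the 4 type I interferon genes. At day 0 the class I genes had a median of 0.70, 9 of 12 being positive.

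Few genes followed the members from cell to cell. Among 7561 genes with reads in at least 20 cells of each batch, the closest to the summed members were *Ly6e*, *Ifitm3*, *Paics*, *Fst*, *Psmb8*, *Aldh3a1*, *Vsnl1*, *Lig1*, *Tnfrsf18* and *Atp5b*, with Spearman's rho, the lower of the 2 batches, from 0.28 to 0.21. *Ly6e* (0.35 in the 222 cells of the first and 0.28 in the 462 of the second batch) and *Ifitm3* (0.27 and 0.32) are interferon-induced genes, and *Psmb8* (0.22 and 0.24) is an immunoproteasome subunit. These values are weak, across cells that share sets and depth.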

How the data were processed

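Per the labels, Smart-seq2 libraries were processed by the authors with Trimmomatic 0.27, STAR 2.2, featureCounts and Seurat 3.2.2 on GRCm38. The deposited table held counts per gene for the first batch and RPKM per gene for the second, and whole reads were recovered from the RPKM steps (99.97% of values whole within 0.02 reads). The deposited annotation gave lineage, day, batch and identity. Of 753 samples, 69 without an annotation, 6 blank wells among them, were not used, and 788 columns of the other tables were not used. Repeated symbols (344) were merged.

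Members and gene lists were chosen with earlier results of these data known. Named genes were the members, list genes and up to 10 genes of like pattern. Set means of scaled values were rescaled by the median ratio within a batch and fitted as log2(mean + 1) with limma 3.58.1 (trend, Benjamini-Hochberg over 10672 genes with a scaled value of at least 10 in at least 2 sets and values in both batches). Time was fitted over 8 groups with batch as a term. Shares carry exact Clopper-Pearson intervals. Scripts were tested on simulated data with known changes. Of 8-fold changes, 29% were called at day 0, and 0% (lin+) and 11% (lin-) for days 9 and 11 against day 6. For day 11 against day 9, 15% (lin+) and 16% (lin-) were called. A gene that was not called can therefore have changed. edgeR 4.0.16 on recovered reads, other pseudocounts, filters and scalings, and leaving out sets were tried.

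The lineage fit took the mouse set as a block, since the study's methods describe both lineages as sorted from the wounded and control skin of these mice. The replicate of a cell was taken from its title and age label, and the labels of day 6 name none. Residuals of the paired sets had correlations of −0.21, −0.01 and −0.10 and the consensus correlation was 0.054. Without the replicate block 15 genes were called at day 0 in place of 46, and no member in either fit.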

Additional observations from a re-analysis of the deposited data

Results flagged for a closer look

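Some members moved in opposite directions in lin+ and lin- cells in both replicates, and in none of these cases was the difference between the lineages tested. The values are differences in log2(mean scaled value + 1) between sets of the same replicate.

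*Cd74* at day 11 against day 0 had 4.68 and 0.84 in lin+ and −0.47 and −0.76 in lin- cells. In replicate 1, 1 cell held 99.8% of the *Cd74* value of each day 0 set and 99.95% of that of lin- day 11. *H2-Aa* had 5.41 and 0.87 in lin+ and −0.68 and −4.25 in lin- cells at day 9, and 6.88 and 1.13 in lin+ and −0.68 and −4.27 in lin- cells at day 11, both against day 0. The lin- values of *H2-Aa* rest on 1 cell with its reads at day 0 in each replicate (1 of 47 and 1 of 48 cells). For *Cd74* the days differ: lin+ day 9 of replicate 2 (148) lay below its day 0 (274), and lin- day 6 (163) lay above both lin- day 0 sets (28.5 and 102).

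*H2-DMb1* had the reverse course at day 9 against day 0, with −0.99 and −1.16 in lin+ and 1.22 and 1.14 in lin- cells. From day 9 to day 11 it had 0.62 and 0.85 in lin+ and −1.43 and −0.59 in lin- cells. *Ciita* at day 9 against day 0 had 0.0052 and 0.81 in lin+ and −0.047 and −0.0052 in lin- cells, all from set means under 1.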

How the results depend on the processing

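No member was called in any of the 5 tests under the other pseudocount, filter, scalings, block or tool, and the 1 member called on leaving out a set was *H2-Ab1* at day 0 (5.39). Of the repeats of a tested member difference, 21 reversed and 595 kept direction and call. At day 0 the 46 genes called became 5 with a pseudocount of 10, 16 with no filter, 17 by edgeR, 15 with no replicate block and 13 to 512 on leaving out 1 set (512 and 499 without lin- or lin+ day 0 of replicate 2, 89 and 78 without lin+ or lin- day 0 of replicate 1, 19 and 18 without lin+ or lin- day 6, and 13 to 19 without a set of replicate 2 of days 9 and 11 or of day 9 of replicate 1). Days 9 and 11 against day 6 in lin+ cells gave 134 with no filter, 2 by edgeR, 2 without 4 cells under 200 genes, 2 with counts divided by gene length and 1 to 2 on leaving out a set, in place of 1. In lin- cells the 4 became 30 with a pseudocount of 10, 347 with no filter, 1 by edgeR, 2 without those 4 cells and 3 to 5 on leaving out a set. Day 11 against day 9 gave 5 in lin+ and 7 in lin- cells with no filter and 0 to 10 in lin- cells on leaving out a set (10 without lin- day 11 of replicate 2). The division by length and the removal of 4 cells were chosen after seeing the data. The cause was not tested.

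*H2-Aa* turned to 0.17 at day 0 with a pseudocount of 10 and to 0.94 at days 9 and 11 against day 6 in lin+ cells by edgeR, and *H2-DMa* at day 11 against day 9 in lin+ cells to 0.0039 with cell totals only and 0.33 by edgeR. On leaving out a set, day 0 differences ran from −1.02 to 1.499 for *Cd74*, −0.72 to 0.58 for *H2-Aa*, −0.55 to 5.39 for *H2-Ab1* and −1.13 to 2.85 for *H2-Eb1*. Those of day 11 against day 9 ran in lin+ cells from −0.59 to 2.03 for *H2-Aa*, −0.81 to 0.54 for *H2-DMa* and −1.02 to 2.205 for *H2-DMb1*, and in lin- cells from −0.78 to 0.75 for *H2-Aa* and −2.79 to 0.84 for *H2-DMb1*. The described wound differences kept their sign, that of *H2-Aa* running from 2.96 with a pseudocount of 10 to 12.7 by edgeR and that of *H2-DMa* from 1.21 to 7.29. That of *H2-DMb1* was 0.85 with a pseudocount of 10, and 0.91 without either lineage's set of day 11, replicate 1. Of the repeated shares of cells with a read, 13 moved and 71 did not, and co-detection of *Cd74* and *H2-Aa* did not move. With 2 sets a group at most, the intervals are wide.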
